A study of Homo sapiens with 6 samples.

Results

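HRAS, NRAS, ARAF, BRAF, MAP2K1, MAP2K2 and MAPK3 encode RAS GTPases, RAF kinases, both MEK kinases and an ERK kinase. They were chosen by symbol, as named genes of the core RAS-RAF-MEK-ERK cascade, and all 7 were found among the 54308 genes in the deposited table and among the 19306 that could be tested. RNA was compared between 2 groups of 143B, a human osteosarcoma cell line. The 3 control libraries came from cells that had received a vector plasmid (VC, genotype control), and the 3 KO libraries from cells with a CRISPR/Cas9 deletion of CNTNAP4, which encodes an adhesion protein of the neurexin superfamily. The labels give 48 h of transfection. The methods give a longer incubation, followed by sorting into single-cell colonies, and fewer colonies were expanded than there are KO libraries. Some KO libraries must then share a colony, and which colony each came from is not stated, so the p-values measure the spread between these RNA samples, and a difference between clones and an effect of the deletion cannot be told apart.

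The cascade carries growth factor signals from the cell membrane to the nucleus. An active receptor recruits adaptors and exchange factors that load RAS with GTP, RAS then activates a RAF kinase, RAF phosphorylates MEK, and MEK phosphorylates ERK. ERK enters the nucleus and raises the transcription of target genes, several of which encode inhibitors of the cascade itself. Each step works through phosphorylation or nucleotide exchange, and the RNA level of a kinase does not measure its activity. The phospho-protein arrays of the study were not analysed here.

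The values are log2 signals that had been made equal in distribution between libraries, and each library ran from -10.87 to 12.04 around a median of 0.62. The number of reads and the linear unit are unknown, so levels are compared between libraries for 1 gene and not between genes. Each library held a value for 20333 to 21041 genes. CNTNAP4 had the log2 signal -7.18 in VC replicate 3 and no value in the other 5 libraries, so these signals do not check the deletion. Mesenchymal markers were present in all 6 libraries, with log2 signals of 10.33 to 10.93 for VIM, 6.46 to 6.95 for SPARC and 2.28 to 2.73 for COL1A1. COL1A2 lay between -5.72 and -4.59, and the osteocalcin gene BGLAP had values only in KO replicates 1 and 2. Of 7 markers of other cell types, PTPRC, PECAM1, CDH5, CDH1 and ALB never exceeded -4.35, CD68 was higher in KO (4.43 to 4.51 in VC and 5.71 to 6.46 in KO) and EPCAM was lower (1.62 to 1.79 and 0.84 to 1.16). In bulk RNA, a change in the share of cells that express a gene and a change in RNA per cell cannot be told apart.

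At an adjusted p under 0.05, HRAS was lower in KO, and it was the only one of the 7 genes past that threshold. NRAS, its close relative in the same tier, lay higher in every KO library than in any VC library, as did MAP2K1, but both had an adjusted p just above the threshold. ARAF, BRAF, MAP2K2 and MAPK3 had KO and VC values that overlapped. Among all genes tested, 32.9% passed the threshold, 13.1% higher and 19.8% lower in KO, and in 59.3% of the genes with 6 values the groups did not overlap. The 1 of 7 called and the 3 of 7 that did not overlap were therefore below the shares of the whole table. The median log2 fold change of all genes tested was -0.13, and every log2 fold change below is KO minus VC.

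**Figure D1:**
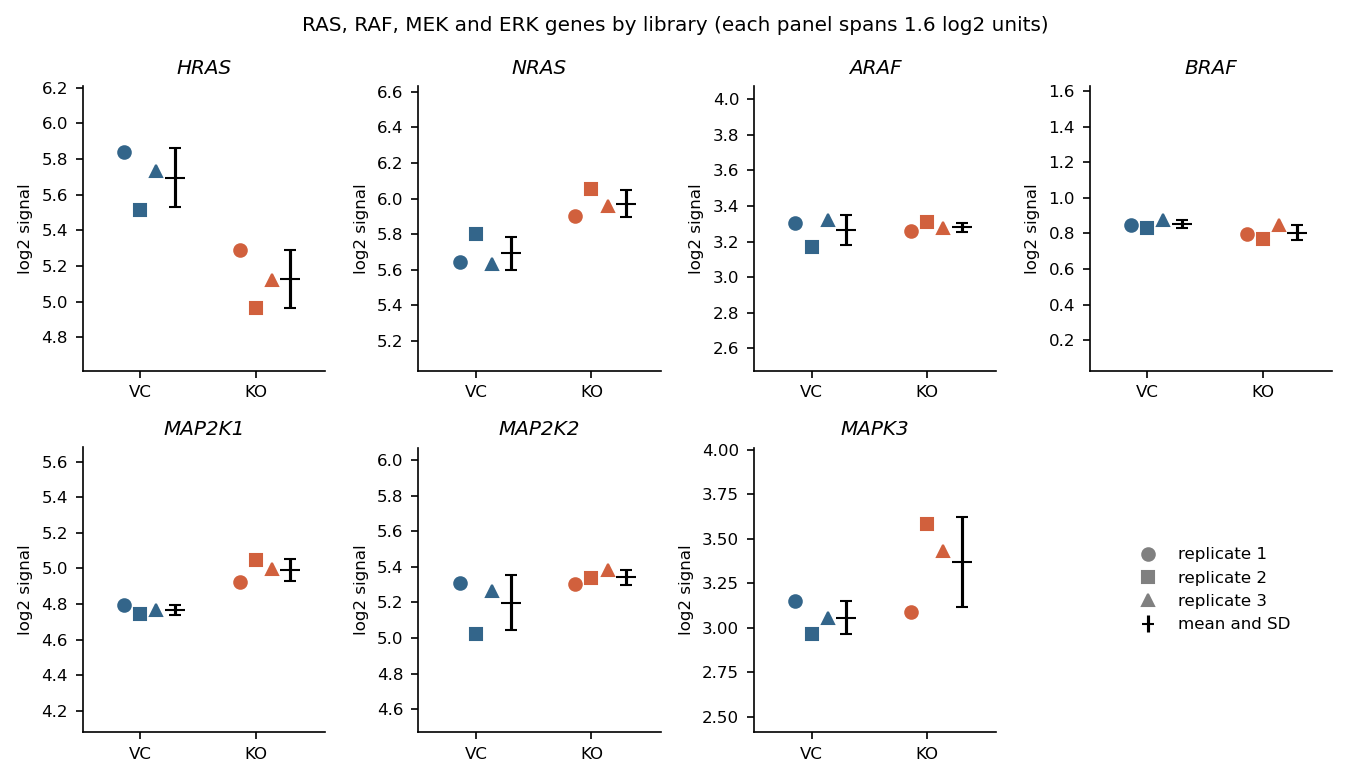
Log2 signal (vertical axis) of each gene in the 3 VC libraries (blue) and 3 KO libraries (orange), with the mean and SD beside them; every panel spans the same 1.6 log2 units. The KO libraries sit under the VC libraries for HRAS and over them for NRAS and MAP2K1, and the groups overlap for the other genes.

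HRAS and NRAS are small GTPases that switch on when bound to GTP. Their coding sequences have the same length, 570 bases with the stop codon, and are identical at 416 positions (73.0%), and the longest run of bases that their transcripts share is 14. RAS proteins vary most from each other near their end, where the membrane anchor is attached. The last 60 coding bases of each, from the transcripts of GENCODE release 29, are shown because the farnesyl group on which membrane binding depends is added there. The 12 capitals mark the codons of the CAAX box, which farnesyltransferase recognises, and the stop codon follows.
HRAS: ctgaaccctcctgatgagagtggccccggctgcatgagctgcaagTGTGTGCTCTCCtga
NRAS: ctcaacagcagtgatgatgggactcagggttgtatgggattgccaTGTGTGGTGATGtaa

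HRAS lies on chromosome 11 (chr11:532242-537287, minus strand, GRCh38). VC replicates 1, 2 and 3 had log2 signals of 5.84, 5.51 and 5.73, and the KO replicates, in the same order, 5.29, 4.97 and 5.12. The highest KO library lay 0.22 under the lowest VC library. The mean fell from 5.70 ± 0.17 to 5.13 ± 0.16 (SD, n = 3), a log2 fold change of -0.57 (standard error, SE, 0.13, 95% interval -0.90 to -0.24, limma adjusted p = 0.029), or 0.674 of the VC level. The call was lost in 4 of the 6 fits that left out a library. Leaving out KO replicate 2 gave an adjusted p of 0.0624 and leaving out KO replicate 3 gave 0.0815, and the values were 0.088 and 0.0906 when VC replicate 1 or 3 was omitted. Over the 6 fits the log2 fold change stayed between -0.66 and -0.49. HRAS passed the threshold in 7 of 8 other settings, with a lowest adjusted p of 0.00583 when only the upper 50% of mean signal was kept. The adjusted p was 0.0532 without variance moderation.

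NRAS is on chromosome 1 (chr1:114704469-114716894, minus strand). VC libraries had log2 signals of 5.64, 5.80 and 5.63 and KO libraries 5.90, 6.05 and 5.96. Every KO value was higher than every VC value, with a gap of 0.10 between the nearest. The means were 5.69 ± 0.095 in VC and 5.97 ± 0.077 in KO (SD, n = 3), and the log2 fold change was 0.28 (SE 0.085, 95% interval 0.065 to 0.49, adjusted p = 0.0558), or 1.21 times the VC level. NRAS passed the threshold in 5 of 8 other settings, with an adjusted p between 0.0171 when only the upper 50% of mean signal was kept and 0.0903 with a replicate block, and in 1 of 6 fits that left out a library (0.043 without KO replicate 1).

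The opposite signs of the RAS genes were compared directly as the log2 ratio of HRAS to NRAS within each library, which cancels any factor that scales a whole library. The ratio was 0.20, -0.29 and 0.098 in the VC replicates and -0.61, -1.09 and -0.84 in the KO replicates. All KO ratios lay under all VC ratios, and the mean changed by -0.85, to 0.555 of the VC ratio on the linear scale (exact permutation test, two-sided p = 0.1, adjusted p = 0.3 over 3 ratios). With 3 libraries against 3, 0.1 is the smallest p this test can give. The change lay between -0.995 and -0.73 when single libraries were left out.

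**Figure D2:**
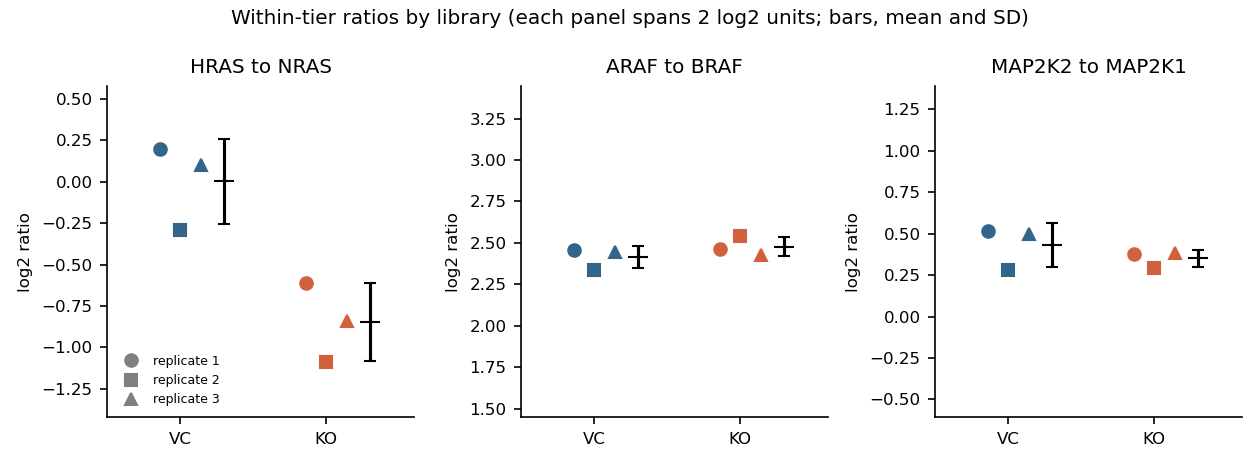
Log2 ratio (vertical axis) of HRAS to NRAS, ARAF to BRAF and MAP2K2 to MAP2K1 in each VC (blue) and KO (orange) library, with the mean and SD; every panel spans 2 log2 units. The ratio of HRAS to NRAS was lower in all KO libraries, with a mean change of -0.85, and the other ratios overlapped.

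The RAF tier had no gene that differed by more than its replicates. ARAF (chrX:47561100-47571920, plus strand) encodes the RAF kinase with the weakest basal activity of its family. It had log2 signals of 3.31, 3.17 and 3.32 in VC and 3.26, 3.31 and 3.28 in KO. The KO values lay inside the VC range, and the log2 fold change was 0.015 (SE 0.074, 95% interval -0.17 to 0.20, adjusted p = 0.891). The sign turned to -0.034 without VC replicate 2, the lowest VC library.

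BRAF (chr7:140719327-140924928, minus strand) encodes a strong activator of MEK. Its log2 signals were 0.85, 0.83 and 0.88 in VC and 0.80, 0.77 and 0.85 in KO, so the highest KO library reached into the VC range. The log2 fold change was -0.048 (SE 0.064, 95% interval -0.21 to 0.11, adjusted p = 0.59), and it was 0.036 with median-centred libraries. The intervals of both RAF genes leave out changes as large as that of HRAS. The log2 ratio of ARAF to BRAF was 2.42 ± 0.066 in VC and 2.48 ± 0.058 in KO (SD, n = 3, exact permutation test, two-sided p = 0.4).

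MAP2K1 and MAP2K2 encode MEK1 and MEK2, the kinases that activate ERK. MAP2K1 (chr15:66386817-66492312, plus strand) had log2 signals of 4.80, 4.74 and 4.77 in VC and 4.92, 5.05 and 5.00 in KO. The VC libraries were close together, and all KO libraries lay above them by at least 0.13. The mean was 4.77 ± 0.027 in VC and 4.99 ± 0.062 in KO (SD, n = 3), with a log2 fold change of 0.22 (SE 0.068, 95% interval 0.050 to 0.39, adjusted p = 0.0575), or 1.17 times the VC level. MAP2K1 passed the threshold in 7 of 8 other settings, among them median-centred libraries (0.31, adjusted p = 0.0404) and an ordinary linear model without moderation (adjusted p = 0.034), and did not pass with a replicate block (adjusted p = 0.149) or in 5 of the 6 fits that left out a library.

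MAP2K2 (chr19:4090321-4124129, minus strand) had log2 signals of 5.31, 5.02 and 5.26 in VC and 5.30, 5.34 and 5.38 in KO. The lowest KO library lay under the highest VC library, and VC replicate 2 stood below the other 5. The log2 fold change was 0.14 (SE 0.10, 95% interval -0.11 to 0.39, adjusted p = 0.31), and 0.053 without VC replicate 2. The log2 ratio of MAP2K2 to MAP2K1 was 0.43 ± 0.13 in VC and 0.35 ± 0.051 in KO (SD, n = 3, exact permutation test, two-sided p = 0.4). Without VC replicate 2 the change in this ratio went from -0.081 to -0.16, and the other VC ratios, 0.52 and 0.50, then lay above all KO ratios, 0.38, 0.29 and 0.38 (two-sided exact p = 0.1, the smallest possible there). The transcripts of the pair share no identical run longer than 38 bases, and how the counting treated reads that match both is not given in the sources used here.

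MAPK3 (chr16:30114105-30123506, minus strand) encodes ERK1. The log2 signals were 3.15, 2.96 and 3.05 in VC and 3.09, 3.58 and 3.43 in KO. KO replicates 2 and 3 lay above every VC library, and KO replicate 1 lay within the VC range. The means were 3.06 ± 0.093 in VC and 3.37 ± 0.25 in KO (SD, n = 3), and the log2 fold change was 0.31 (SE 0.15, 95% interval -0.058 to 0.68, adjusted p = 0.153). Without KO replicate 1 it was 0.45 (adjusted p = 0.0218), and without KO replicate 2 it was 0.20 (adjusted p = 0.317). MAPK3 was not called in the other 5 fits that left out a library or in any of the 8 other settings. The KO libraries differed more among themselves for MAPK3 than for any other of the 7 genes.

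**Figure D3:**
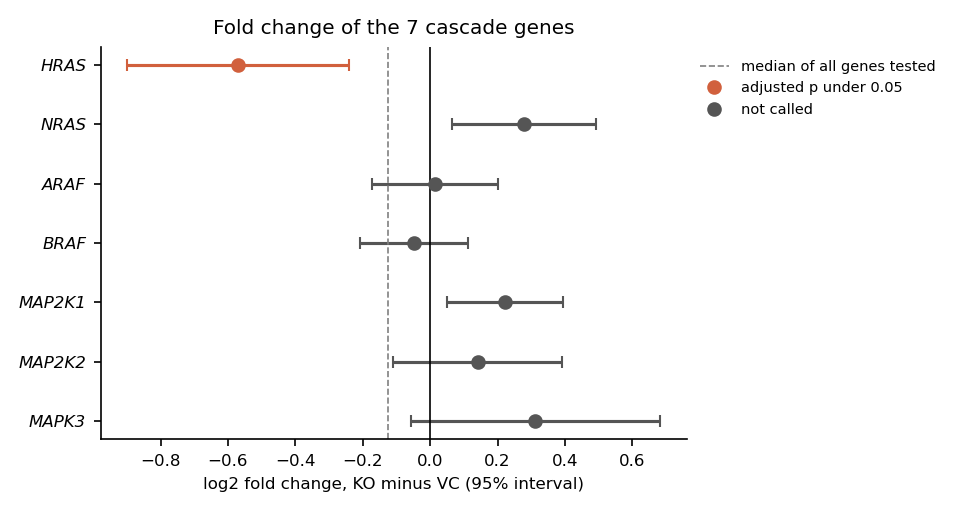
Log2 fold change (horizontal axis, KO minus VC) of each gene with its 95% interval from the limma fit; the dashed line is the median of all genes tested, -0.13. HRAS (orange, adjusted p = 0.029) lies on the lower side, and the intervals of NRAS and MAP2K1 lie above 0 although their adjusted p-values were 0.0558 and 0.0575.

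VC replicate 2 stood apart in a way that follows base composition. Over genes with a mean signal in the upper 50%, the median difference of VC replicate 2 from VC replicate 1 went from 0.086 in the lowest of 5 groups of transcript GC content to -0.20 in the highest, and its difference from VC replicate 3 from 0.095 to -0.17. Between VC replicates 1 and 3 the median difference stayed within 0.0064 to 0.019 over the 5 groups. The RAS genes are at opposite ends of this range, with 65.8% GC for HRAS and 38.4% for NRAS. VC replicate 2 differed from the mean of the other VC libraries by -0.27 for HRAS, -0.27 for MAP2K2 (65.5% GC), -0.14 for MAPK3 (61.4%) and -0.15 for ARAF (58.9%), and by 0.16 for NRAS. For MAP2K1 (50.4%) and BRAF (40.0%) the differences were -0.039 and -0.031. With each library centred within 5 groups of GC content, a setting added after this pattern was seen, HRAS, NRAS and MAP2K1 were called. Their log2 fold changes were -0.54 (adjusted p = 0.0157), 0.37 (adjusted p = 0.0202) and 0.32 (adjusted p = 0.0167), and BRAF changed sign to 0.045. That fit covered 16388 genes. Median centring without GC groups gave similar values for NRAS (0.36, adjusted p = 0.0516), MAP2K1 (0.31, adjusted p = 0.0404) and BRAF (0.036). For HRAS it gave -0.49 (adjusted p = 0.0257). Without VC replicate 2 the ratio of HRAS to NRAS changed by -0.995, the largest change of the fits that left out a library.

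**Figure D4:**
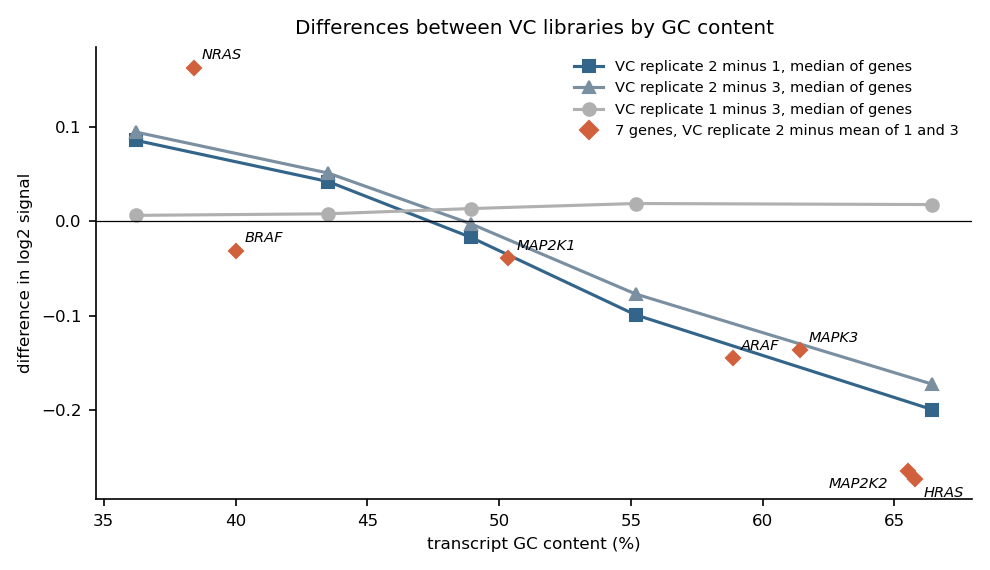
Difference in log2 signal between VC libraries (vertical axis) against transcript GC content (horizontal axis, %); lines join the medians of 5 groups of genes for each pair of VC libraries, and diamonds are the 7 genes in VC replicate 2 minus the mean of VC replicates 1 and 3. Both lines with VC replicate 2 fall with GC content, to -0.20 and -0.17, the line between VC replicates 1 and 3 stays within 0.0064 to 0.019, and HRAS and MAP2K2 have the lowest diamonds, at -0.27.

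Genes next to each member were examined because clones can differ in the copies of a chromosome region that they carry. Of the 20 nearest genes in the upper 50% of mean signal around HRAS, 9 were called lower and 1 higher, with a median log2 fold change of -0.30, against -0.095 for all such genes of chromosome 11 and -0.087 for all such genes with a known position. Over the 5 GC groups of genes in the upper 50% of mean signal, 17.1% to 25.2% were called lower and 14.1% to 20.1% higher. Copy number was not measured, and its part in the lower HRAS signal was not tested. Around the other 6 genes the median of the neighbours was between -0.12 for MAPK3 and 0.048 for BRAF. The neighbours of NRAS had a median of -0.11, with 3 higher and 3 lower, and those of MAP2K1 had -0.097, with 2 higher and 5 lower. Some members overlap a gene on the opposite strand: MAP2K1 shares 2178 bases with SNAPC5 (log2 fold change -0.013, adjusted p = 0.929) and BRAF shares 3464 bases with NDUFB2 (-0.16, adjusted p = 0.167). The library kit keeps the strand, and whether the counting used it is not stated.

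The genes around the cascade were described in 8 lists of 101 genes, of which 97 were tested. Of these, 39 were called (40.2%, against 32.9% of all genes), 16 higher and 23 lower, with a median log2 fold change of -0.087. The lists were chosen with earlier results of these data known, so their shares are a description and not a test. With a replicate block 7 of the list genes were called, and without VC replicate 3 only 6. Calls fell over the whole table as well, from 6354 of 19306 genes to 1740 of 19005 and 1223 of 18626 in the same fits.

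Upstream of RAS, 15 adaptors and exchange factors were tested, and 7 were lower and 1 higher in KO, with a median of -0.34. The share called was 53.3%, against 32.9% of all genes. SOS1, the main exchange factor behind receptors, fell from 3.33 ± 0.094 in VC to 2.34 ± 0.44 in KO (SD, n = 3, adjusted p = 0.0307), and GRB2, the adaptor that brings SOS to receptors, fell from 5.58 ± 0.010 to 5.27 ± 0.12 (adjusted p = 0.0442). Both were named after their values were seen. PTPN11, FRS2 and GAB1, which link receptors to RAS, were lower as well. GAB2 (0.76, adjusted p = 0.0509) and SOS2 (0.18, adjusted p = 0.164) lay higher in every KO library than in any VC library. Neither was called, and SHC1 (0.084, adjusted p = 0.508) overlapped between the groups. By size of change, RASGRP3 (-2.40, adjusted p = 0.0259) and RASGRF1 (-1.67, adjusted p = 0.00847) fell most, both from log2 signals under -2, and RASGRF2 rose (0.47, adjusted p = 0.0225). Adding 1 to the linear signal, which shrinks changes at low levels, gave -0.027 for RASGRP3 (adjusted p = 0.293), -0.15 for RASGRF1 (adjusted p = 0.00791) and 0.40 for RASGRF2, and the median of the list was -0.14. The number of lower genes was 1 in each of the fits without a VC library and with a replicate block. Over all genes tested, the lower genes numbered 569 to 1396 in those fits, against 3828 in the fit as reported.

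RAS is switched off by GTPase-activating proteins, of which 9 were tested, 2 higher and 3 lower (55.6% called, against 32.9% of all genes). Their median was 0.034 and changed sign with the setting. It was -0.027 with genes with 6 values or a replicate block and -0.087 with the upper 50% of mean signal. It was -0.081 without KO replicate 1, -0.0087 without KO replicate 3, -0.063 without VC replicate 2 and -0.0076 without VC replicate 3. NF1, the GTPase-activating protein lost in neurofibromatosis, changed by -0.42 in log2 signal (adjusted p = 0.0353), DAB2IP by -0.54 (adjusted p = 0.0456) and RASAL2 by -0.52 (adjusted p = 0.0238). RASA2 rose by 0.26 (adjusted p = 0.0495). For RASAL3 the difference was 1.24 on the log2 scale (adjusted p = 0.0425), from 4 values between -7.83 and -6.23, and 0.0092 with 1 added to the linear signal.

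The proteins that modify and move RAS formed a list of 12, with 4 lower, none higher and a median of -0.13 (-0.044 with median-centred libraries). The share called, 33.3%, was close to the 32.9% of all genes. The called genes include both subunits of farnesyltransferase, the enzyme that modifies the CAAX box shown above. FNTB, its beta subunit, had log2 signals of 2.41, 2.15 and 2.30 in VC and 1.75, 0.88 and 0.93 in KO, a fold change of -1.10 on the log2 scale (adjusted p = 0.0307). The alpha subunit gene FNTA went from 5.63 ± 0.041 to 5.31 ± 0.084 (SD, n = 3, log2 fold change -0.33, adjusted p = 0.0294). ICMT, which methylates the processed end of RAS, fell by 0.79 (adjusted p = 0.0207), and ABHD17C, an enzyme that removes palmitate, by 0.89 (adjusted p = 0.0381). RCE1, the protease that acts between farnesylation and methylation, was not called. FNTB was called in 7 of the 14 other settings, with its highest adjusted p, 0.0917, without VC replicate 1.

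Among 9 related small GTPases the median was -0.012 (0.072 with median-centred libraries), with RALB higher (0.51, adjusted p = 0.0149) and RRAS2 lower (-0.45, adjusted p = 0.0161). Scaffolds and regulators of RAF, MEK and ERK numbered 28, with 2 higher, 7 lower and a median of -0.16 (-0.079 with median-centred libraries). The shares called were 22.2% of the small GTPases and 32.1% of the scaffolds and regulators, against 32.9% of all genes. LZTR1, an adaptor through which RAS proteins are ubiquitinated, rose from 2.10 ± 0.11 to 2.87 ± 0.11 (SD, n = 3, log2 fold change 0.76, adjusted p = 0.01). SHOC2, part of a phosphatase complex that activates RAF, rose by 0.30 (adjusted p = 0.0298). CNKSR2, a scaffold with log2 signals of -1.27 to -1.18 in VC, fell by 1.74 (adjusted p = 0.0137), and its change was -0.34 (adjusted p = 0.0044) after 1 was added to the linear signal. HSP90AA1, the chaperone that keeps RAF kinases folded, fell from 10.23 ± 0.036 to 8.95 ± 0.31 (SD, n = 3, log2 fold change -1.28, adjusted p = 0.0101), and it stayed past the threshold in all 14 other settings. HSP90AB1, PEA15, CNKSR3, YWHAB and YWHAZ were the other lower genes.

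Downstream of ERK, the list of genes known to follow ERK activity had 7 of 10 higher, none lower and a median log2 fold change of 0.68, where 13.1% of all genes were higher. DUSP6, a phosphatase that inactivates ERK, had log2 signals of 5.63, 5.55 and 5.64 in VC and 6.48, 6.94 and 6.77 in KO. All KO libraries lay above all VC libraries, by 1.13 on average (log2 fold change, SE 0.13, adjusted p = 0.00963). SPRY2, a feedback inhibitor that acts between receptors and RAF, had 3.25, 3.19 and 3.15 in VC and 4.14, 4.55 and 4.25 in KO, also without overlap (log2 fold change 1.11, SE 0.13, adjusted p = 0.00898). PHLDA1, SPRY4, ETV5, EPHA2 and EPHA4 were the other higher genes. DUSP4 (0.038), CCND1 (-0.19) and ETV4 (-0.068) were not called. The RNA of these genes does not measure ERK activity. The paper reports lower ERK phosphorylation in KO cells on a protein array and in KO xenografts by staining. How the RNA levels relate to that protein result was not tested.

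DUSP6, SPRY2 and PHLDA1 were called in all 14 other settings, with a highest adjusted p of 0.0472. The number of higher genes in the list was 3 with a replicate block and between 3 and 7 when single libraries were left out. Over all genes tested, the higher genes numbered 661 with a replicate block and 654 to 2940 with single libraries left out, against 2526 in the fit as reported. Of the kinases that ERK activates, RPS6KA2 rose by 1.59 (adjusted p = 0.0132) and RPS6KA1 fell by 0.62 (adjusted p = 0.0397), both members of the RSK family, and the other 5 tested were not called. In the ERK5 module and the atypical MAPKs, MAPK6 (0.34, adjusted p = 0.0257) and MAP2K5 (0.29, adjusted p = 0.0449) were higher among 7 tested. In both of these lists the share called was 28.6%, below the 32.9% of all genes.

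**Figure D5:**
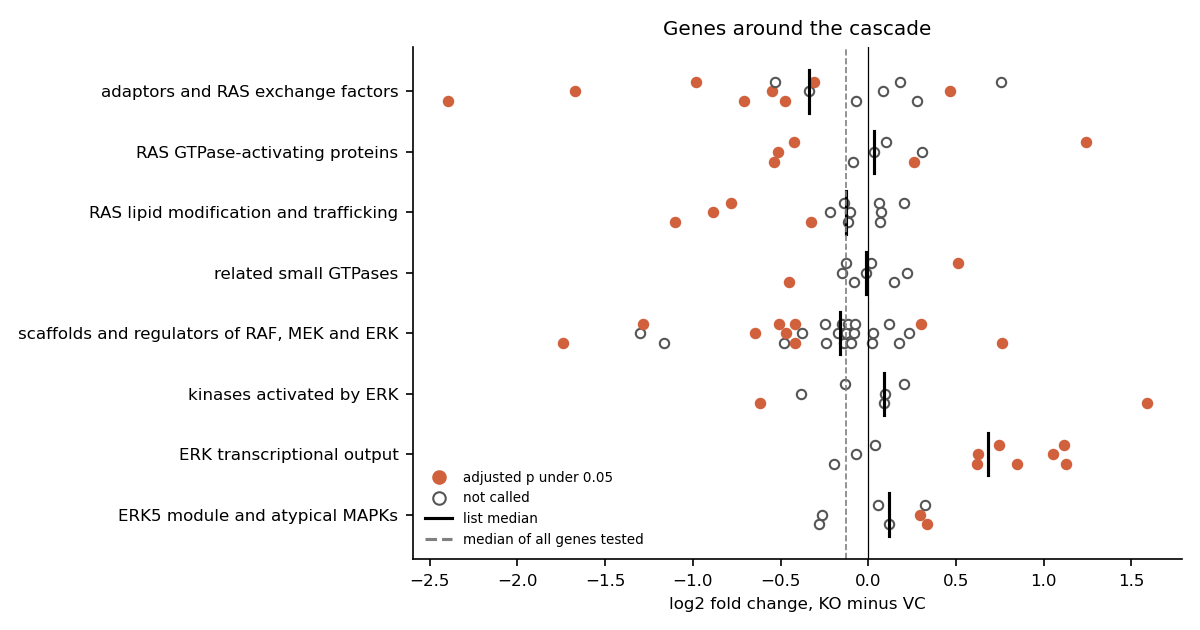
Log2 fold change (horizontal axis, KO minus VC) of each tested gene in the 8 lists around the cascade; filled points have an adjusted p under 0.05, black bars are list medians and the dashed line is the median of all genes tested. The genes listed as following ERK activity (ERK transcriptional output) have the highest median, 0.68, and the adaptors and exchange factors have the lowest median, -0.34 (-0.14 with 1 added to the linear signal). The lists were chosen with earlier results of these data known.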

How the data were processed

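The authors sequenced RNA of clonal 143B cells, 3 VC and 3 CNTNAP4 KO libraries, on an Illumina NextSeq instrument. The methods name CLC Genomics software and Partek Genomics Suite, and the submitters' processing notes name CASAVA, STAR, Partek and the build GRCh38.p13, without tool versions. The deposited values are log2 signals by gene symbol, quantile-normalized between libraries by the authors, as shown by sorted values that hardly differ between libraries. Depth is unknown, and no counting interval could be given.

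The signals were used as deposited in R 4.3.3 with limma 3.58.1 (linear model, empirical Bayes moderation without trend). A gene needed 2 or more values per group, and Benjamini-Hochberg adjustment of two-sided p-values ran over all 19306 such genes. DEGs had an adjusted p under 0.05. Ratios were compared by exact permutation tests, and scripts were tested on simulated data. Positions, overlaps, coding sequences and GC content (longest basic transcript) came from GENCODE release 29 on GRCh38, matched by symbol, and neighbours, 10 on each side, from a RefSeq gene table (GRCh38.p14), where 17667 tested genes matched. GC content was found for 9413 of the 9653 genes in the upper 50% of mean signal.

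Named in the text are the 7 genes, CNTNAP4, and the 2 called genes with the largest change in each direction in each list. Also named are the 3 genes nearest to each member in pattern, cell type markers, and SNAPC5 and NDUFB2, which overlap members. Other genes of the lists, called or not, were named after their values were seen. The members and lists were chosen with earlier results of these data known. Some other genes of the cascade are not reported here. Alternatives were the upper 50% of mean signal, genes with 6 values, median-centred libraries (on genes with 6 values), 1 added to the linear signal, trend and robust moderation, no moderation, a replicate block, single libraries left out and, added later, centring within 5 groups of GC content.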

Additional observations from a re-analysis of the deposited data

How the results depend on the processing

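Of the 7 cascade genes, 1 was called in the fit as reported, and 3 with 1 added to the linear signal, with genes with 6 values, with trend and robust moderation, with the upper 50% of mean signal and with centring within groups of GC content. With median-centred libraries 2 were called, and between 0 and 4 with single libraries left out (4 without KO replicate 1, and 0 without VC replicate 1 or 3 or KO replicate 2 or 3). DEGs numbered 1223 without VC replicate 3 to 8669 without KO replicate 1, and the called genes of the 8 lists 6 to 49 in the same fits. ARAF ranged from -0.034 to 0.043 with single libraries left out, and BRAF was 0.045 with centring within groups of GC content and 0.036 with median-centred libraries. The median of all genes tested moved from -0.13 to -0.042 with median-centred libraries and to -0.023 with 1 added to the linear signal. The cause of these changes was not tested.

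Same-numbered libraries showed no shared deviation: their deviations correlated by 0.023, 0.0051 and -0.0074 across genes. Whether they were prepared together is not given in the sources used here, and these correlations cannot show it. A replicate block gave 1740 DEGs and 7 called genes of the lists, and still 1 called cascade gene, HRAS (adjusted p = 0.0481). BRAF was below the median of mean signal and had no value with the upper 50% of genes. Read numbers are unknown, so the depth needed to see a change as small as those of the RAF genes could not be judged.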

Other observations

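For each cascade gene, the genes with the most similar pattern over the 6 libraries were found by the root mean square difference of log2 signals centred on each gene's mean, among 9652 genes with 6 values in the upper 50% of mean signal (9653 for BRAF). Nearest to HRAS were TELO2 (0.030), PACSIN3 (0.033) and TEDC1 (0.034). The genes nearest to NRAS were MRPS35 (0.015), PTGR1 (0.021) and FOXN2 (0.021). DMAC2 (0.016), SLC26A2 (0.019) and FLI1 (0.020) lay nearest to MAP2K1. For MAP2K2 the nearest were URB1-AS1 (0.019), CAPN10 (0.029) and AP2A1 (0.030), and for MAPK3 LOC100289561 (0.029), IFT43 (0.029) and PGM1 (0.036). ARAF was followed by ITPR3 (0.0083), IRF2BP2 (0.010) and TRMT112 (0.019), and BRAF by SIN3A (0.0087), RPL27 (0.015) and SAP30BP (0.017). These are descriptions of 6 libraries in 2 groups.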
